A study of Mus musculus with 24 samples.

Results

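Metallothioneins and zinc transport genes were followed in mouse CD8+ T cells exposed to bile acids. The set holds 10 of the 24537 genes in the count table, chosen by gene symbol: the metallothionein genes Mt1 and Mt2, the zinc-sensing transcription factor gene Mtf1, the zinc exporter genes Slc30a1, Slc30a5 and Slc30a7, and the zinc importer genes Slc39a1, Slc39a6, Slc39a7 and Slc39a10. All 10 passed the filter on low counts, as did 13044 genes in all. The genes were chosen with results of these same libraries known, among them the higher Mt1 and Mt2 levels in cells exposed to IsoLCA. For that reason no member is tested between IsoLCA and Control, and Mt1 and Mt2 are given without a test wherever IsoLCA enters. The tests of the other contrasts are not independent evidence about these genes, because which values guided the choice of the other members is not recorded.

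The 24 RNA-seq libraries fall into 8 groups of 3. CD8+ T cells, activated in vitro, were exposed to lithocholic acid (LCA), IsoLCA, IsoAlloLCA, DehydroLCA or ursodeoxycholic acid (UDCA) at 50 µM, or to the taurine-conjugated taurocholic acid (TCA) or taurochenodeoxycholic acid (TCDCA) at 100 µM. The Control group had no bile acid, and the labels name no vehicle for it. Activation in culture was shared by every group, Control included. Exposure lasted 24 h according to the series text and overnight according to the labels. The labels do not say whether the 3 libraries of a group came from separate cultures or mice, so the p-values measure the spread between these libraries, which may be technical. Strain, age and sex of the mice are likewise not stated.

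Metallothioneins are small cytosolic proteins rich in cysteine that bind zinc and copper through thiolate clusters. When free zinc in the cytosol increases, the zinc finger protein Mtf1 binds metal response elements (MREs) in promoters such as those of Mt1, Mt2 and Slc30a1, and activates them. Transporters of the SLC30 (ZnT) family move zinc out of the cytosol, across the plasma membrane or into organelles, and those of the SLC39 (ZIP) family move it into the cytosol. T cells take up zinc during activation, and zinc modulates signalling from the T cell receptor.

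Mt1 and Mt2 are neighbours on chromosome 8, and their coding sequences are shown because they carry the cysteines that bind the metal and because their likeness bears on how reads are assigned. Mt2 lies at chr8:94172618-94173567 and Mt1 at chr8:94179089-94180327, both on the plus strand of mm10 and 5522 bases apart. Each coding sequence (GENCODE M21, GRCm38) is 186 bases long and encodes 61 residues, of which 20 (32.8%) are cysteines, whose codons are in capitals.
Mt1 coding sequence: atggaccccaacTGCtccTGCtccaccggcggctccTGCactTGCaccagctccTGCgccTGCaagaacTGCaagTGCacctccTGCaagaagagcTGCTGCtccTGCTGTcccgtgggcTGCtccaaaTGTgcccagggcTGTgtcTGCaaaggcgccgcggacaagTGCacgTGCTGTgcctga
Mt2 coding sequence: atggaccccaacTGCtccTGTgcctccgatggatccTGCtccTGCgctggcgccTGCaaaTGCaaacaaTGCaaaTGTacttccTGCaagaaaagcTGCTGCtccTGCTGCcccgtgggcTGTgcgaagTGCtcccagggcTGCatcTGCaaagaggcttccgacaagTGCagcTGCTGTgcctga
The cysteine codons of both genes number the same, and the coding sequences have 148 of 186 bases (79.6%) in common at matching positions. The longest run shared by the transcripts is 20 bases, and no stretch of 25 bases of one is found in the other. The labels state no read length, so how far reads were divided between Mt1 and Mt2 was not tested, and their summed counts are given beside the separate ones.

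Promoter sequences are shown for the 4 members whose levels varied the most, with matches to the MRE core in capitals. The core was searched as TGCGCNC or TGCACNC on both strands of the 250 bases before and 50 bases after each gene's start (RefSeq, GRCm38.p6), and the 250 bases before the start are printed, 5′ to 3′ in the direction of the gene. A match on the opposite strand therefore reads as its reverse complement.
Mt1 promoter, chr8:94178839-94179088, plus strand: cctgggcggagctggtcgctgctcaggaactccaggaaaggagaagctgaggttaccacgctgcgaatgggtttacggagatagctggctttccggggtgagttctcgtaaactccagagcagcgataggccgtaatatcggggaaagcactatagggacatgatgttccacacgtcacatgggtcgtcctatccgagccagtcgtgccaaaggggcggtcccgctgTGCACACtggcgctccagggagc
Mt2 promoter, chr8:94172368-94172617, plus strand: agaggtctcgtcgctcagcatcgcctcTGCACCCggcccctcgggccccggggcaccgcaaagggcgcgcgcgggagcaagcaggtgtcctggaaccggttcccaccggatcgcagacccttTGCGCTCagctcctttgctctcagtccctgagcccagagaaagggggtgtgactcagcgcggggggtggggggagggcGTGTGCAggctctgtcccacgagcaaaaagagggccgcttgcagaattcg
Slc30a1 promoter, chr1:191906531-191906780, plus strand: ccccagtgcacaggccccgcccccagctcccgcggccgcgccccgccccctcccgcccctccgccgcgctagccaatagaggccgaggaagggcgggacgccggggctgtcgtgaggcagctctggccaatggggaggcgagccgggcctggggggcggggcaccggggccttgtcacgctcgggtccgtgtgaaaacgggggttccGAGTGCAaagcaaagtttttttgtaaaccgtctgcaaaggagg
Slc39a10 promoter, chr1:46853619-46853868, minus strand: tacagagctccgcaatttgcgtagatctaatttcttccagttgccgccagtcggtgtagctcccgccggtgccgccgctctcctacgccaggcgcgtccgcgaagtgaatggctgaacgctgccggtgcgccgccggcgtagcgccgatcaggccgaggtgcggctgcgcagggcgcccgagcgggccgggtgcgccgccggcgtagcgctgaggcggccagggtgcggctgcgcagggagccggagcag
Over the window of 300 bases Mt2 had 4 matches, Mt1 had 3 and Slc30a1 had 2. Of these, 3 in Mt2, 1 in Mt1 and 1 in Slc30a1 lie in the printed bases. Slc39a10 had 0 matches, but its table entry, 1 of 2 for the gene, starts 109 bases upstream of the start in the count table. Its window ended 50 bases after the entry's start, so the bases at the start in the count table were not searched. The other entry was not searched either. Of the other members found in the table, Slc30a5 had 1 match, and Mtf1, Slc30a7, Slc39a1 and Slc39a7 had 0. Slc39a6 is named only. Of all 32851 promoters of this length, 25.7% had at least 1 match, 7.11% at least 2, 1.97% at least 3 and 0.517% at least 4. A match describes these letters and is no evidence of binding.

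The counts in genes per library ran between 25998051 and 41024340.5, with a median of 32852325, and the 10 members had between 343 (Slc30a1) and 9566 (Slc39a6) counts in a library. Levels are given as CPM, the gene's count scaled to a common library total over the tested genes, with TMM normalization factors of 0.972 to 1.05. CD8 T cell markers (Cd8a, Cd8b1, Cd3e, Cd3d and Cd3g) summed to 1812 to 2332 CPM in a library. The CD4 T cell markers Cd4 and Foxp3 summed to 8.30 to 11.8 CPM, and Col1a1, Col1a2 and Pecam1, of stromal and endothelial cells, to 30.6 to 51.8 CPM. Summed markers of B cells reached at most 0.738 CPM, of myeloid cells 1.12 CPM, of dendritic cells 0.940 CPM, of NK cells 1.60 CPM and of erythroid cells 0.303 CPM. Alb, the hepatocyte marker, and Siglech, a marker of plasmacytoid dendritic cells, were at 0 in every library. In IsoAlloLCA libraries the NK cell markers summed to 1.18 to 1.60 CPM, the dendritic cell markers to 0.529 to 0.940 CPM, the CD4 T cell markers to 10.7 to 11.8 CPM and the CD8 T cell markers to 2106 to 2332 CPM. In Control libraries these sums were 0.539 to 0.899 CPM, 0.217 to 0.310 CPM, 9.14 to 9.58 CPM and 1874 to 1905 CPM in the same order, with no overlap in any of the 4. Both CD4 T cell markers rose under IsoAlloLCA, as did Itgax, the only dendritic cell marker tested, with 0.489 CPM in IsoAlloLCA libraries against 0.212 CPM in Control libraries. The myeloid markers, at 0.694 to 1.12 CPM in IsoAlloLCA libraries and 0.345 to 0.728 CPM in Control libraries, overlapped. Exons held 78.3 ± 2.78% of the reads in IsoAlloLCA libraries and 82.6 ± 1.37% in Control libraries (SD, n = 3 each). Their part in the IsoAlloLCA results below was not tested.

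Against Control, Mt2 rose under LCA, IsoAlloLCA and DehydroLCA, and Mt1 rose under IsoAlloLCA. The exporter gene Slc30a1 rose under those 3 acids and UDCA, and the importer gene Slc39a10 fell under LCA and IsoAlloLCA. Group means spanned 4.48-fold for Mt2, 3.08-fold for Mt1, 2.45-fold for Slc39a10 and 1.74-fold for Slc30a1, while the span of the other 6 members lay between 1.11-fold (Slc30a7) and 1.36-fold (Slc39a6). Changes are log2 differences of the acid minus Control from edgeR's quasi-likelihood fit of all 24 libraries, with the standard error (SE), and a change passed where the Benjamini-Hochberg adjusted p over all tested genes was under 0.05. The comparisons with Control share the same 3 Control libraries. The stromal and endothelial markers, nearly all Pecam1 by level, had lower sums under several of the same acids. They summed to 30.6 to 36.7 CPM in LCA, 36.9 to 38.6 CPM in IsoLCA, 37.5 to 41.1 CPM in DehydroLCA, 36.0 to 37.6 CPM in UDCA and 35.9 to 39.6 CPM in TCDCA libraries, all below the 45.3 to 51.8 CPM of Control libraries. The sums in IsoAlloLCA libraries (44.1 to 49.3 CPM) and TCA libraries (43.7 to 48.3 CPM) overlapped Control. Group means of Col1a1 and Col1a2 reached at most 0.234 and 0.213 CPM, and Pecam1, the only one of the 3 that passed the filter, fell under LCA (-0.54), DehydroLCA (-0.30), UDCA (-0.38) and TCDCA (-0.35). A fall of Pecam1 alone cannot show a change in stromal or endothelial cells, and its part in the results of these acids was not tested.

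**Figure D1:**
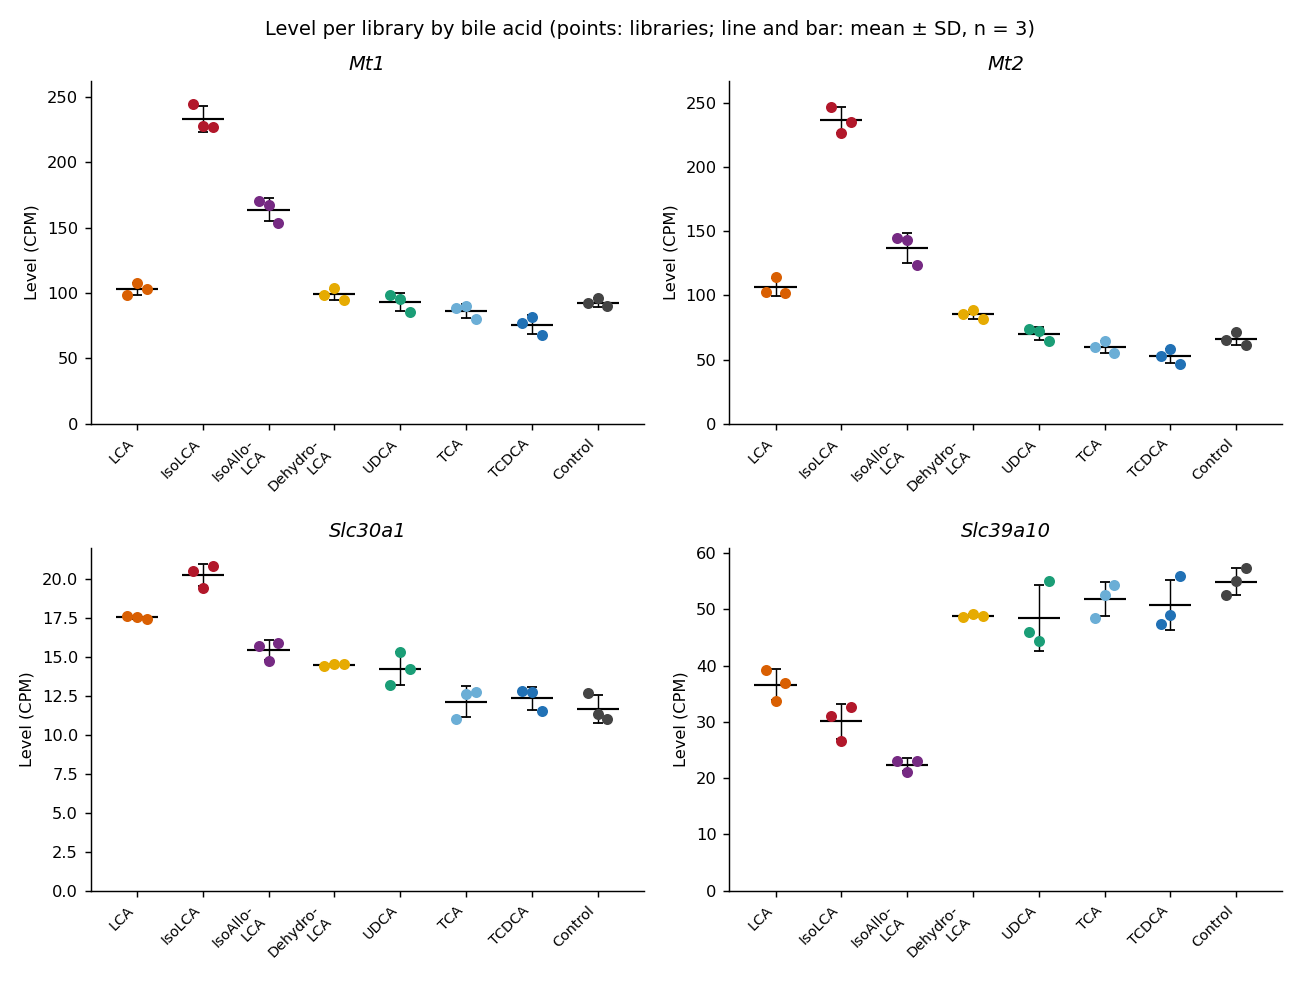
Levels of Mt1, Mt2, Slc30a1 and Slc39a10 in each library (points, CPM on axes that start at 0) with the group mean (line) and SD (error bar) over 3 libraries, for the 7 acid groups and Control. Mt1 and Mt2 were highest in IsoLCA libraries (group means 233 and 236 CPM), while Slc39a10 was lowest in IsoAlloLCA libraries (22.4 CPM).

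Against Control, 8 of the 10 members passed under IsoAlloLCA (4 higher and 4 lower), where 58.4% of all tested genes passed, 30.6% higher and 27.8% lower. Under LCA 5 members passed (3 higher and 2 lower), beside 36.5% of all tested genes, 17.7% higher and 18.8% lower. Without Control replicate 2 the LCA count was 3. DehydroLCA gave 2 members, both higher (Mt2 and Slc30a1), beside a background of 5.83%, with 2.41% higher and 3.41% lower. UDCA gave 2 members, both higher (Slc30a1 and Slc30a5), beside 19.9%, with 9.18% higher and 10.7% lower. TCDCA gave 2 members, both lower (Mt1 and Mt2), beside 13.1%, with 5.08% higher and 8.04% lower. TCA gave 0 members beside 0.437%, with 0.0843% higher and 0.353% lower. None of the 10 had an unadjusted p under 0.05 in edgeR under TCA, and DESeq2 called 0 of them. Between IsoLCA and Control 9.84% of all tested genes passed, and nothing is read from that share about the members. With 10 members, 1 gene moves a share by 10 percentage points, so no share is read as particular to them. The median change of the 10 members was 0.04 under LCA, 0.03 under IsoAlloLCA, 0.04 under DehydroLCA, 0.05 under UDCA, -0.02 under TCA and -0.01 under TCDCA. Over all tested genes the median was 0.01 under LCA, 0.03 under IsoAlloLCA, 0.01 under DehydroLCA and UDCA, 0.0024 under TCA and 0.0026 under TCDCA.

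Mt2, one of the pair of metallothionein genes expressed in most tissues, had 247, 227 and 235 CPM in IsoLCA libraries, against 65.7, 71.7 and 61.8 CPM in Control libraries. The lowest IsoLCA library was above every library of every other group, and the mean was 3.56 times that of Control, a log2 difference of 1.83 that is given with no test. In IsoAlloLCA libraries Mt2 had 145, 143 and 124 CPM, again with no overlap with Control, and it rose by 1.05 ± 0.07 (SE, edgeR adjusted p = 9.6e-12). In LCA libraries it had 103, 115 and 102 CPM and rose by 0.68 ± 0.07 (SE, edgeR adjusted p = 7.85e-08). In DehydroLCA libraries it had 85.9, 88.6 and 81.7 CPM, all above Control, and rose by 0.36 ± 0.07 (SE, edgeR adjusted p = 0.00299).

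The 3 remaining acids left Mt2 near or below Control. UDCA libraries had 73.9, 72.6 and 64.3 CPM, which overlapped the Control values, with a difference of 0.08 ± 0.08 (SE, edgeR adjusted p = 0.48). TCA libraries had 60.1, 64.2 and 55.5 CPM, also overlapping Control, with a difference of -0.15 ± 0.08 (SE, edgeR adjusted p = 0.608). TCDCA libraries had 53.0, 58.1 and 46.9 CPM, all below Control, and Mt2 was lower by a log2 difference of -0.33 ± 0.08 (SE, edgeR adjusted p = 0.0043). The order of group means for Mt2 was thus IsoLCA, IsoAlloLCA, LCA, DehydroLCA, UDCA, Control, TCA and TCDCA. The libraries of neighbours in that order did not overlap as far down as DehydroLCA and UDCA, and they overlapped between every pair of neighbours from UDCA to TCDCA.

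Mt1, the other widely expressed metallothionein gene, had 244, 228 and 227 CPM in IsoLCA libraries, against 92.0, 96.1 and 89.9 CPM in Control libraries. These groups stood apart, with a log2 difference of 1.33 given with no test. In IsoAlloLCA libraries Mt1 had 171, 167 and 154 CPM, all above Control, and rose by 0.82 ± 0.06 (SE, edgeR adjusted p = 2.82e-11). LCA libraries had 98.2, 107 and 103 CPM, all above Control as well, with a difference of 0.15 ± 0.06 (SE, edgeR adjusted p = 0.0573) that did not pass. The Mt1 difference under LCA passed with the 6 libraries of the comparison alone (adjusted p = 0.0144) and with no filter on low counts (adjusted p = 0.0401). It also passed without the IsoAlloLCA group (adjusted p = 0.0471) and without LCA replicate 1 (adjusted p = 0.0441).

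Under the 4 other acids the Mt1 mean lay between 75.6 and 98.9 CPM, against 92.7 CPM in Control libraries. DehydroLCA libraries had 98.5, 103 and 94.7 CPM and UDCA libraries had 98.4, 95.1 and 85.6 CPM, both overlapping Control, with differences of 0.09 ± 0.06 and 0.01 ± 0.06 (SE) that did not pass. TCA libraries had 88.8, 90.3 and 80.2 CPM, which overlapped Control with a difference of -0.10 ± 0.06 (SE, edgeR adjusted p = 0.693). TCDCA libraries had 77.2, 81.9 and 67.7 CPM, all below Control, and Mt1 was lower by a log2 difference of -0.29 ± 0.06 (SE, edgeR adjusted p = 0.00238). In the order of group means for Mt1, IsoLCA and IsoAlloLCA stood apart from the next group, and every later pair of neighbours (LCA, DehydroLCA, UDCA, Control, TCA, TCDCA) overlapped.

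The ratio of Mt2 to Mt1 was 1.04 ± 0.038 in LCA libraries, 1.01 ± 0.0206 in IsoLCA, 0.837 ± 0.028 in IsoAlloLCA, 0.864 ± 0.0080 in DehydroLCA, 0.755 ± 0.0073 in UDCA, 0.693 ± 0.0172 in TCA and 0.696 ± 0.0121 in TCDCA libraries, against 0.716 ± 0.0298 in Control libraries (SD, n = 3 each). The ratios under LCA, IsoAlloLCA, DehydroLCA and UDCA did not overlap those of Control. Each of these gave a 2-sided exact permutation p of 0.1, the smallest that 3 against 3 libraries allow, so that no difference in ratio could pass 0.05, and 0.15 after Benjamini-Hochberg adjustment over the 6 acids compared. TCA and TCDCA gave an exact permutation p of 0.4. Mt1 and Mt2 summed to 209 ± 11.1 CPM in LCA, 469 ± 19.5 in IsoLCA, 301 ± 20.7 in IsoAlloLCA, 184 ± 7.83 in DehydroLCA, 163 ± 11.8 in UDCA, 146 ± 9.70 in TCA and 128 ± 12.8 in TCDCA libraries, against 159 ± 8.13 in Control libraries (SD, n = 3 each). Fitted as 1 gene, the sum rose by 0.40 ± 0.07 under LCA (SE, edgeR adjusted p = 3.92e-05) and by 0.92 ± 0.07 under IsoAlloLCA (SE, edgeR adjusted p = 1.38e-11). Under DehydroLCA the summed difference of 0.21 ± 0.07 did not pass (SE, edgeR adjusted p = 0.0567), although that of Mt2 alone did.

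**Figure D2:**
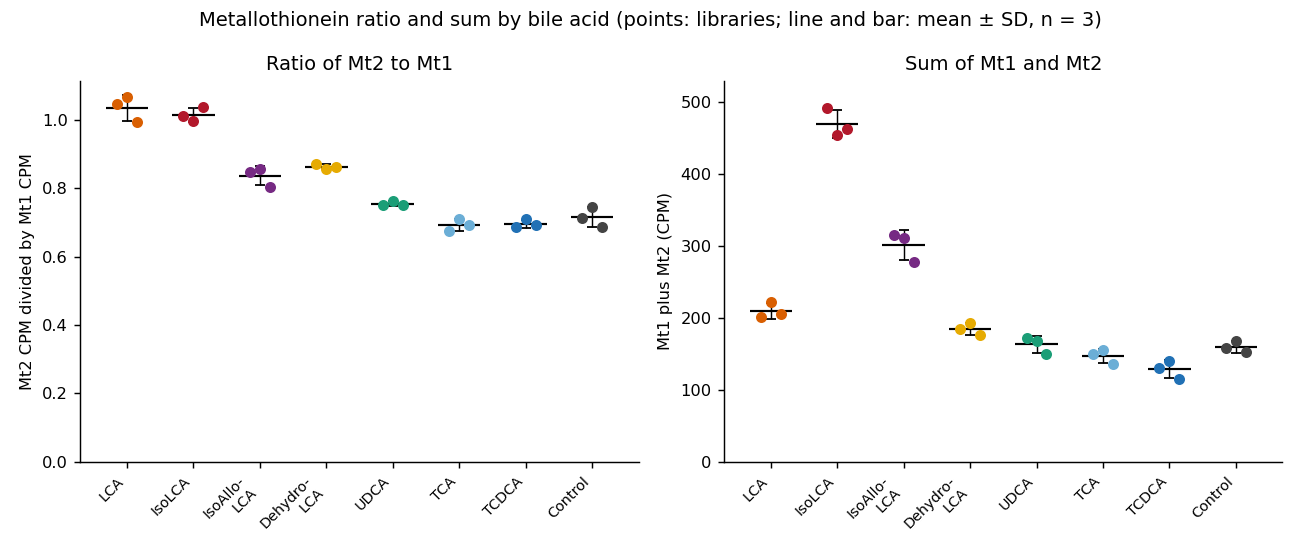
Ratio of Mt2 to Mt1 CPM (left) and their summed CPM (right) in each library (points), with the group mean (line) and SD (error bar) over 3 libraries, for the 7 acid groups and Control. LCA and IsoLCA libraries lie around a ratio of 1.04 and 1.01, above the Control mean of 0.716, while TCA and TCDCA libraries lie at 0.693 and 0.696. The sum is highest in IsoLCA libraries, at 469 CPM.

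Mtf1, the zinc-sensing activator of the metallothionein genes, varied little. Its group means lay between 37.2 CPM in IsoAlloLCA libraries and 44.8 CPM in LCA libraries, against 41.3 CPM in Control libraries. In IsoAlloLCA libraries Mtf1 had 37.7, 36.0 and 37.8 CPM, all below the Control values of 40.9, 41.5 and 41.5 CPM, and it was lower by a log2 difference of -0.15 ± 0.04 (SE, edgeR adjusted p = 0.00494). Mtf1 thus fell under IsoAlloLCA, where Mt1 and Mt2 rose, and whether these changes are linked was not tested. In LCA libraries it had 45.7, 44.1 and 44.5 CPM, all above Control, and rose by 0.12 ± 0.04 (SE, edgeR adjusted p = 0.0412). That call was lost with DESeq2 (adjusted p = 0.0839), with RLE factors (adjusted p = 0.0547), with no filter on low counts (adjusted p = 0.101) and on leaving out each of the 6 libraries in turn (adjusted p between 0.0735 and 0.135). Under IsoLCA the log2 difference was -0.01 (no test), and under DehydroLCA, UDCA, TCA and TCDCA it lay between -0.01 and 0.04. Mtf1 overlaps 1110065P20Rik on the opposite strand over 316 bases, that gene had 5.75 to 9.08 CPM, and whether reads were counted by strand is not stated in the labels.

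Slc30a1 encodes ZnT1, the exporter of the plasma membrane and a target of Mtf1. It had 20.5, 19.5 and 20.8 CPM in IsoLCA libraries, against 12.7, 11.3 and 11.02 CPM in Control libraries. These values did not overlap, and the log2 difference was 0.80, given with no test. LCA libraries had 17.7, 17.6 and 17.4 CPM, and Slc30a1 rose by 0.59 ± 0.07 (SE, edgeR adjusted p = 1.75e-07). IsoAlloLCA libraries had 15.7, 14.7 and 15.9 CPM, and it rose by 0.40 ± 0.07 (SE, edgeR adjusted p = 1.76e-05). Both groups were above every Control library. Smaller rises were found with DehydroLCA and UDCA. DehydroLCA libraries had 14.5, 14.6 and 14.6 CPM, a rise of 0.32 ± 0.07 (SE, edgeR adjusted p = 0.00513), and UDCA libraries had 13.2, 15.3 and 14.2 CPM, a rise of 0.29 ± 0.07 (SE, edgeR adjusted p = 0.0037). Both lay above Control without overlap.

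Under the taurine conjugates Slc30a1 overlapped Control. TCA libraries had 11.01, 12.6 and 12.8 CPM, a difference of 0.06 ± 0.07 (SE, edgeR adjusted p = 0.862), and TCDCA libraries had 12.8, 12.8 and 11.5 CPM, a difference of 0.09 ± 0.07 (SE, edgeR adjusted p = 0.468). The order of group means was IsoLCA, LCA, IsoAlloLCA, DehydroLCA, UDCA, TCDCA, TCA and Control. Neighbours in that order overlapped between DehydroLCA and UDCA and from TCDCA to Control, and stood apart elsewhere. Slc30a1 therefore had LCA above IsoAlloLCA, while Mt1 and Mt2 had IsoAlloLCA above LCA. Slc30a1 overlaps 1700034H15Rik on the opposite strand over 747 bases, and that gene had 0.610 to 1.53 CPM.

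Slc39a10 encodes ZIP10, an importer of the plasma membrane that mouse B cells need for survival. It was the member with the largest fall. IsoAlloLCA libraries had 23.1, 21.03 and 23.1 CPM, against 52.6, 55.0 and 57.3 CPM in Control libraries, a log2 difference of -1.30 ± 0.08 (SE, edgeR adjusted p = 1.27e-12). No IsoAlloLCA library reached a library of any other group, and the level fell by 59.3% relative to Control. IsoLCA libraries had 31.1, 26.6 and 32.6 CPM, all below Control, with a log2 difference of -0.87 given with no test. LCA libraries had 39.2, 33.7 and 37.0 CPM, all below Control, and the log2 difference was -0.58 ± 0.08 (SE, edgeR adjusted p = 1.72e-06). In these bulk libraries fewer cells with Slc39a10 RNA and less of it per cell cannot be told apart.

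Under the other acids Slc39a10 lay closer to Control. DehydroLCA libraries had 48.7, 49.2 and 48.8 CPM, all below Control, with a difference of -0.17 ± 0.08 (SE, edgeR adjusted p = 0.217) that did not pass. It passed with the 6 libraries of the comparison alone (adjusted p = 0.0187). UDCA libraries had 45.9, 44.3 and 55.1 CPM, of which replicate 3 lay within the Control range, with a difference of -0.18 ± 0.08 (SE, edgeR adjusted p = 0.0891). Without UDCA replicate 3 the UDCA difference was -0.29 and passed (adjusted p = 0.00919), and with no filter on low counts it also passed (adjusted p = 0.0399). TCA libraries had 48.5, 52.6 and 54.3 CPM and TCDCA libraries had 47.5, 49.0 and 55.9 CPM, which overlapped Control with differences of -0.09 ± 0.08 and -0.11 ± 0.08 (SE). The order of group means was Control, TCA, TCDCA, DehydroLCA, UDCA, LCA, IsoLCA and IsoAlloLCA. Neighbours in that order overlapped from Control to UDCA, and UDCA, LCA, IsoLCA and IsoAlloLCA stood apart.

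**Figure D3:**
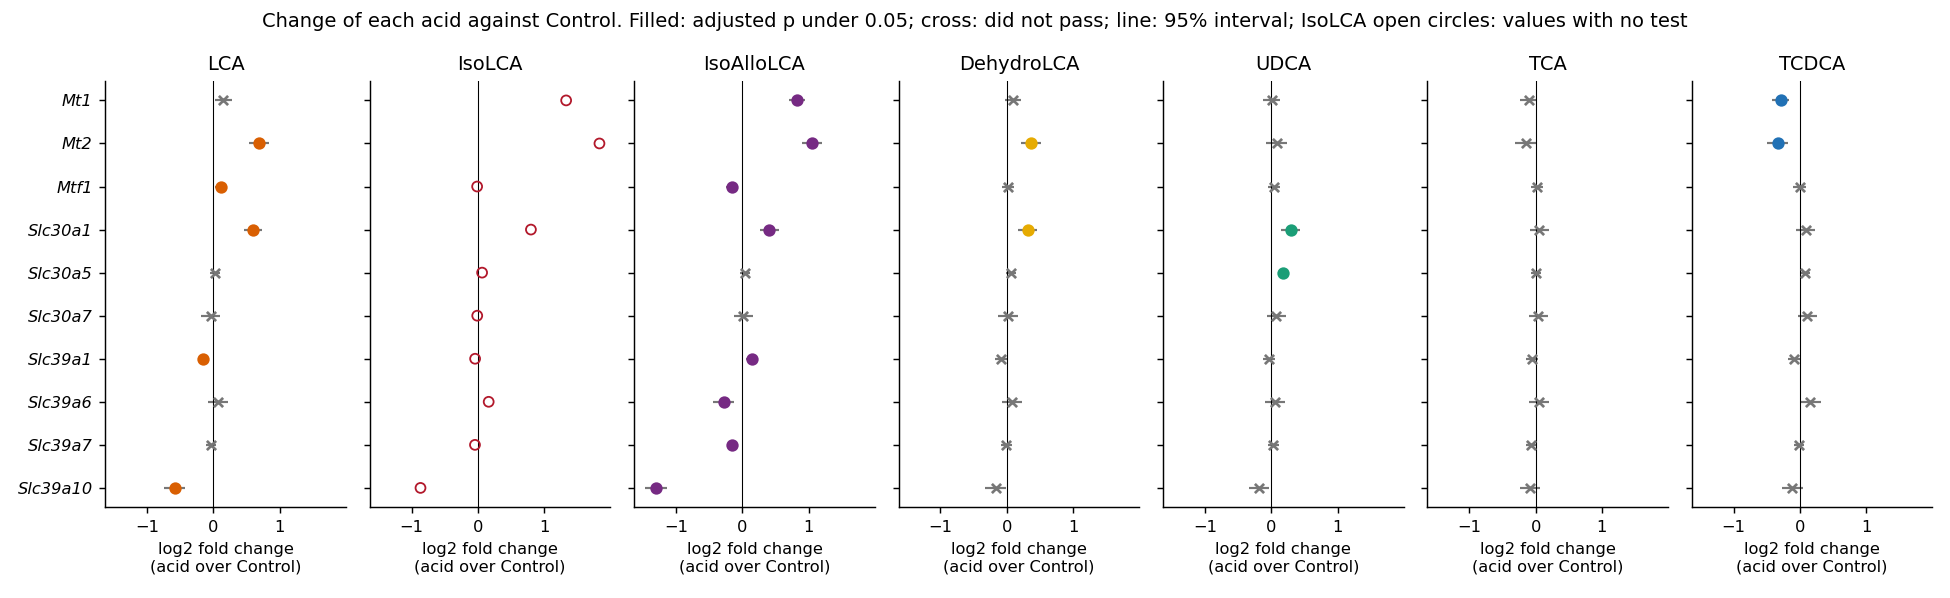
Log2 difference of each acid minus Control for the 10 members, from edgeR's fit of all 24 libraries, with lines for the 95% interval. Filled points passed an adjusted p under 0.05, crosses did not, and open circles (IsoLCA) are values with no test. Mt2 runs from -0.33 under TCDCA to 1.83 under IsoLCA, and Slc39a10 reaches -1.30 under IsoAlloLCA.

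The other 5 transporters changed by little. In the 6 comparisons with Control that were tested, differences of Mtf1 and these transporters lay between -0.28 and 0.18 on the log2 scale. Slc30a5, which loads zinc into the secretory pathway, rose under UDCA, with 91.8, 91.4 and 88.7 CPM in UDCA libraries against 78.0, 79.2 and 82.1 CPM in Control libraries, a difference of 0.18 ± 0.04 (SE, edgeR adjusted p = 0.00125). The UDCA libraries did not overlap those of any other group. Slc30a7, another exporter of the secretory pathway, had group means of 56.7 CPM (LCA) to 63.0 CPM (TCDCA), against 58.3 CPM in Control libraries, and passed in no tested comparison. Every group of Slc30a7 overlapped Control. Mir669n, on the opposite strand of Slc30a7, had at most 0.0469 CPM.

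Slc39a1 encodes ZIP1, an importer of the plasma membrane, and it moved in opposite directions under IsoAlloLCA and LCA. IsoAlloLCA libraries had 61.4, 56.1 and 57.3 CPM, all above the Control values of 52.5, 54.9 and 50.9 CPM, a rise of 0.14 ± 0.04 (SE, edgeR adjusted p = 0.00572). LCA libraries had 49.5, 45.9 and 47.0 CPM, all below Control, a log2 difference of -0.15 ± 0.04 (SE, edgeR adjusted p = 0.00745). The difference between these acids was itself tested, at 0.30 ± 0.04 for IsoAlloLCA minus LCA (SE, edgeR adjusted p = 1.56e-06). The rise was lost without Control replicate 3 (0.11, adjusted p = 0.0632) or IsoAlloLCA replicate 1 (0.10, adjusted p = 0.0542), and the fall without Control replicate 2 (-0.12, adjusted p = 0.0544).

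Slc39a6 encodes ZIP6, an importer of the plasma membrane that pairs with ZIP10, and lies on chromosome 18 (24579881 to 24603817, minus strand). It had 176, 142 and 175 CPM in IsoAlloLCA libraries, against 193, 196 and 209 CPM in Control libraries, a log2 difference of -0.28 ± 0.08 (SE, edgeR adjusted p = 0.0026). The IsoAlloLCA libraries lay below every other library of the series. Under TCDCA the difference of 0.16 ± 0.08 did not pass (SE, edgeR adjusted p = 0.179), but passed with the 6 libraries of the comparison alone (adjusted p = 0.0143). Slc39a7 encodes ZIP7, which releases zinc from the endoplasmic reticulum. It had 117, 118 and 116 CPM in IsoAlloLCA libraries, against 124, 132 and 133 CPM in Control libraries, a log2 difference of -0.15 ± 0.04 (SE, edgeR adjusted p = 0.00213). In the other 5 tested acids Slc39a6 and Slc39a7 passed in none.

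**Figure D4:**
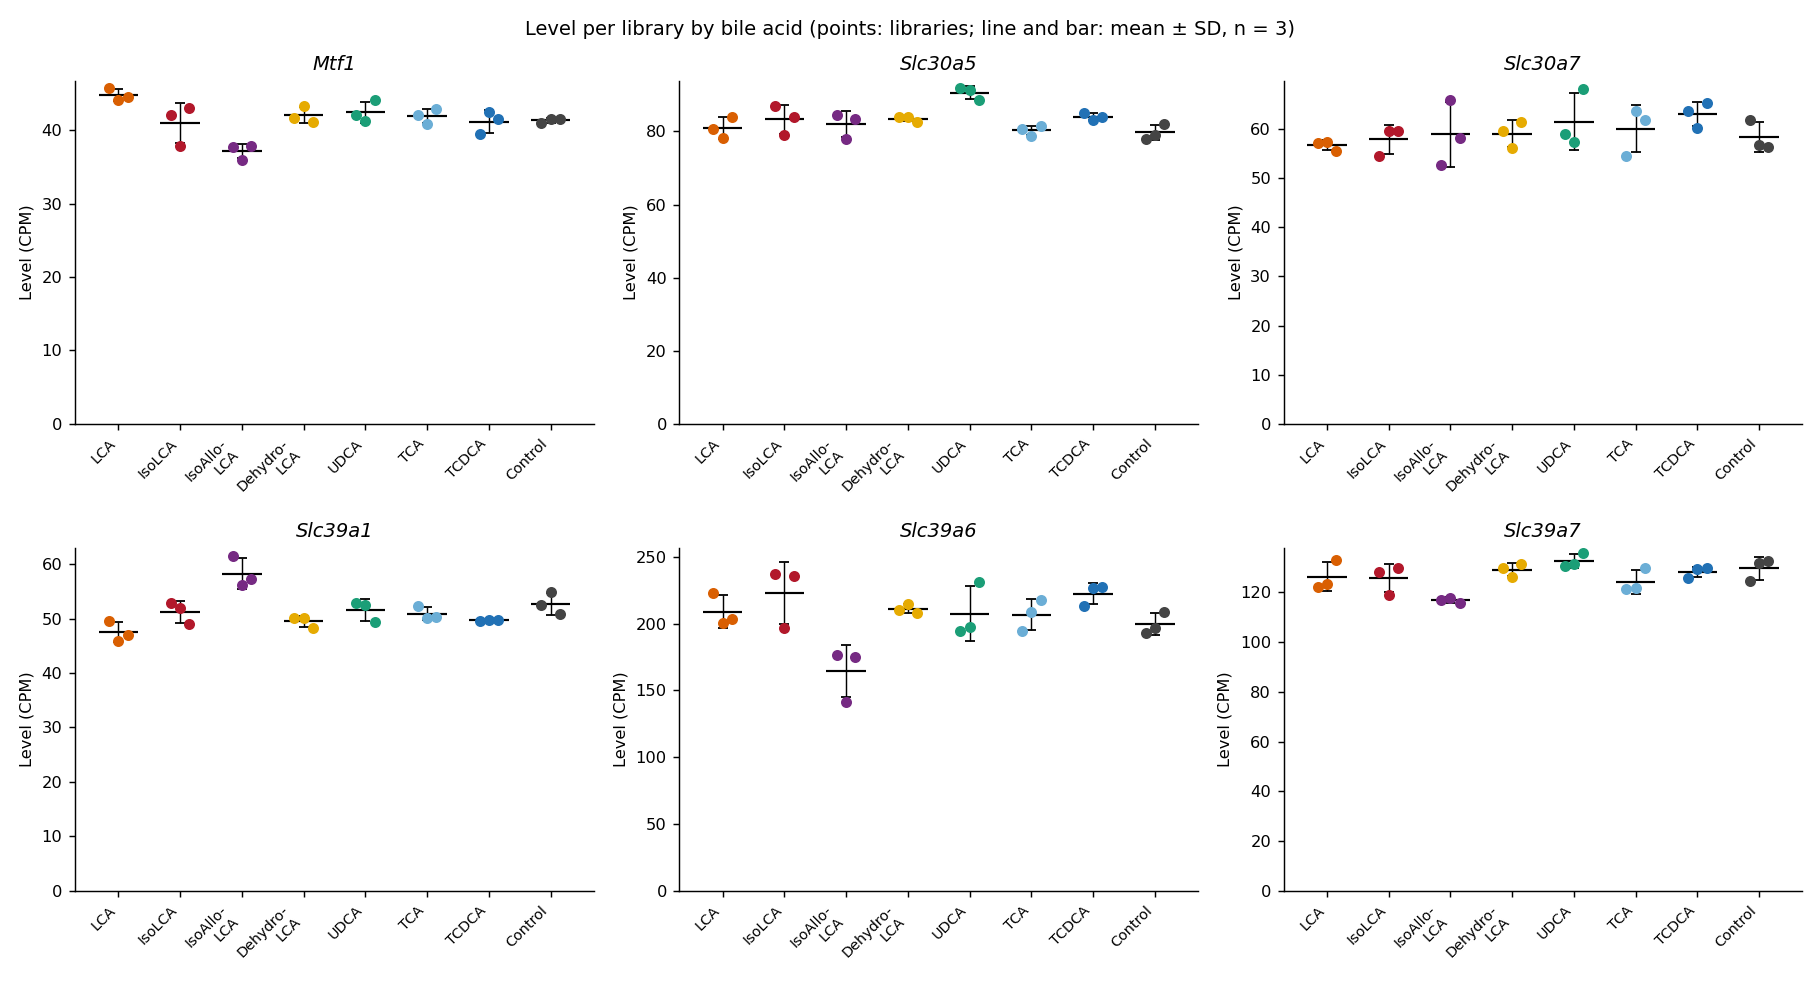
Levels of Mtf1, Slc30a5, Slc30a7, Slc39a1, Slc39a6 and Slc39a7 in each library (points, CPM on axes that start at 0) with the group mean (line) and SD (error bar) over 3 libraries, for the 7 acid groups and Control. Slc39a6 was lowest in IsoAlloLCA libraries (mean 164 CPM, against 199 CPM in Control libraries), and Slc30a5 was highest in UDCA libraries (mean 90.7 CPM, against 79.8 CPM in Control libraries).

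Per length of transcript, the metallothionein genes were the most abundant members in Control libraries, at 173 CPM per kb for Mt1 and 121 CPM per kb for Mt2. The importers Slc39a7 and Slc39a6 followed at 54.4 and 51.5 CPM per kb, and Slc30a5 and Slc39a1 at 25.2 and 22.6 CPM per kb. Slc39a10 had 11.1, Slc30a7 6.47, Mtf1 5.43 and Slc30a1 2.24 CPM per kb in Control libraries. Slc30a1, the exporter that passed under the most acids, had the lowest level per length of the 10. In IsoLCA libraries Mt1 and Mt2 reached 434 and 429 CPM per kb.

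The acids were also compared with each other at the matched dose of 50 µM, beginning with IsoLCA, which differs from LCA in the orientation of the hydroxyl group on its first ring. For IsoLCA against LCA, 3 of the 8 members tested passed, beside 30.3% of all tested genes. Slc30a1 was higher in IsoLCA than in LCA libraries by 0.21 ± 0.06 (SE, edgeR adjusted p = 0.0136), a call lost without IsoLCA replicate 3 (adjusted p = 0.053). Slc39a10 was lower by a log2 difference of -0.28 ± 0.08 (SE, edgeR adjusted p = 0.00915), lost without IsoLCA replicate 2 (adjusted p = 0.0639) or LCA replicate 1 (adjusted p = 0.0512). Mtf1 was lower by a log2 difference of -0.13 ± 0.04 (SE, edgeR adjusted p = 0.029), lost without any LCA library, without IsoLCA replicate 2, with the 6 libraries alone or with no filter (adjusted p between 0.0576 and 0.199). Without IsoLCA replicate 2 the count was 1 of 8. Slc39a1 was at 0.11 ± 0.04 (SE, edgeR adjusted p = 0.0548), and with the replicate number as a block it passed (adjusted p = 0.0285). The differences of Mt1 and Mt2 were 1.18 and 1.15, given with no test.

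IsoAlloLCA differs from LCA in that same hydroxyl group and also in how its first rings are joined. Against LCA, 8 of the 10 members passed, 3 higher and 5 lower, beside 61.4% of all tested genes. Mt1 was higher in IsoAlloLCA than in LCA libraries by 0.67 ± 0.06 (SE, edgeR adjusted p = 5.76e-10) and Mt2 by 0.36 ± 0.07 (SE, edgeR adjusted p = 8.72e-05). Slc30a1 was lower by a log2 difference of -0.19 ± 0.07 (SE, edgeR adjusted p = 0.0158), which was lost without IsoAlloLCA replicate 2 (adjusted p = 0.0765). Slc39a10 was lower by a log2 difference of -0.71 ± 0.08 (SE, edgeR adjusted p = 4.59e-08). Slc39a1 was higher by 0.30, and Slc39a6, Mtf1 and Slc39a7 were lower, with log2 differences of -0.35, -0.27 and -0.11. The Slc39a7 difference was lost without LCA replicate 3 (adjusted p = 0.117) or IsoAlloLCA replicate 3 (adjusted p = 0.051).

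IsoAlloLCA differs from IsoLCA in how its first rings are joined. Of the 8 members tested between them 6 passed, beside 59.8% of all tested genes. Slc30a1 was lower in IsoAlloLCA than in IsoLCA libraries by a log2 difference of -0.39 ± 0.06 (SE, edgeR adjusted p = 1.01e-05). Slc39a10 was lower by -0.43 ± 0.08 (SE, edgeR adjusted p = 9.83e-05), and Slc39a6 by -0.44 ± 0.08 (SE, edgeR adjusted p = 1.74e-05), both on the log2 scale. Slc39a1 was higher by 0.19, and Mtf1 and Slc39a7 differed by -0.14 and -0.11. The Mtf1 difference was lost with the 6 libraries alone (adjusted p = 0.0635) or without IsoLCA replicate 3 (adjusted p = 0.0671). The Slc39a7 difference was lost with upper-quartile factors, with the 6 libraries alone, and without IsoLCA replicate 1 or 3 or IsoAlloLCA replicate 3 (adjusted p between 0.0637 and 0.115). The differences of Mt1 and Mt2, with no test, were -0.51 and -0.78.

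DehydroLCA carries a keto group where LCA and IsoLCA carry the hydroxyl group. Against LCA 3 of the 10 members passed, beside 17.8% of all tested genes. Mt2 was lower in DehydroLCA than in LCA libraries by a log2 difference of -0.32 ± 0.07 (SE, edgeR adjusted p = 0.00318), and Slc30a1 by -0.27 ± 0.07 (SE, edgeR adjusted p = 0.00464). Slc39a10 was higher by 0.42 ± 0.08 (SE, edgeR adjusted p = 0.000514). Mt1 differed by -0.06, with a 95% interval of -0.18 to 0.07, and summed with Mt2 by -0.18 (edgeR adjusted p = 0.0511). Against IsoLCA 2 of the 8 members tested passed, beside 1.67% of all tested genes. Slc30a1 was lower in DehydroLCA than in IsoLCA libraries by a log2 difference of -0.48 ± 0.06 (SE, edgeR adjusted p = 6.16e-05), and Slc39a10 was higher by 0.70 ± 0.08 (SE, edgeR adjusted p = 3.43e-06). Mt1 and Mt2 differed by -1.24 and -1.47, given with no test.

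UDCA carries a second hydroxyl group that LCA lacks. Against LCA 5 of the 10 members passed, 3 higher and 2 lower, beside 26.9% of all tested genes. Mt2 was lower in UDCA than in LCA libraries by a log2 difference of -0.60 ± 0.07 (SE, edgeR adjusted p = 1.09e-06), and Slc30a1 by -0.30 ± 0.07 (SE, edgeR adjusted p = 0.00136). Slc39a10 was higher by 0.40 ± 0.08 (SE, edgeR adjusted p = 0.000367) and Slc30a5 by 0.16 ± 0.04 (SE, edgeR adjusted p = 0.00233). Slc39a1 was higher by 0.12 (edgeR adjusted p = 0.0419), although the libraries overlapped, a call lost with DESeq2 (adjusted p = 0.0508), upper-quartile factors, no filter, the 6 libraries alone, and without UDCA replicate 1 or 2 or LCA replicate 2 or 3 (adjusted p up to 0.177). Mt1 differed by -0.14 with a 95% interval of -0.27 to -0.02, and did not pass (edgeR adjusted p = 0.0866).

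TCA and TCDCA, both taurine conjugates at 100 µM, differ by a hydroxyl group that TCDCA lacks. None of the 10 members passed between them in edgeR or DESeq2, beside 3.61% of all tested genes, and 2 had an unadjusted p under 0.05. Mt1 was at 0.19 with a 95% interval of 0.06 to 0.32 (edgeR adjusted p = 0.0907), and Mt2 was at 0.19 with an interval of 0.03 to 0.34 (edgeR adjusted p = 0.198). Mt1 passed without TCA replicate 3 (0.24, adjusted p = 0.032) and with no filter on low counts (adjusted p = 0.0471). No acid at 50 µM was tested against an acid at 100 µM. The orders of group means mix these doses, so acid and dose cannot be told apart there.

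The other genes of both zinc transporter families were read from lists chosen by family name. Of 7 other SLC30 exporters 4 passed the filter, with a median log2 difference of -0.21 under LCA and 0.04 under IsoAlloLCA, beside 0.01 and 0.03 over all tested genes. Slc30a4, Slc30a6 and Slc30a9 fell under LCA, with log2 differences of -0.23, -0.18 and -0.24, beside 18.8% of all tested genes lower. Under IsoAlloLCA Slc30a4 and Slc30a9 rose, by 0.34 ± 0.06 and 0.16 ± 0.04 (SE), whereas Slc30a2 had 1.17 CPM in IsoAlloLCA libraries against 2.92 CPM in Control libraries and fell by 1.32 ± 0.13 (SE, edgeR adjusted p = 6.95e-09). Slc30a2 also fell under UDCA (-0.58), and Slc30a6 and Slc30a9 under TCDCA (-0.21 and -0.23). None of the 4 passed under DehydroLCA or TCA.

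Of 10 other SLC39 importers 9 passed the filter, with a median log2 difference of -0.05 under LCA and 0.10 under IsoAlloLCA. Slc39a14, which in mouse liver imports zinc and non-transferrin iron, had 57.2 CPM in IsoAlloLCA and 64.5 CPM in LCA libraries, against 74.3 CPM in Control libraries, and fell under both, with log2 differences of -0.38 and -0.21. Slc39a11 rose under LCA (0.37) and UDCA (0.23), and Slc39a3 under LCA (0.16), UDCA (0.19) and TCDCA (0.27). Slc39a2 rose under LCA and IsoAlloLCA, but from a low level, with group means of 0.317 and 0.322 CPM against 0.115 CPM in Control libraries. Under IsoAlloLCA 3 of the 9 importers rose and 3 fell, beside 30.6% of all tested genes higher and 27.8% lower, and none passed under DehydroLCA or TCA. Slc39a4, the importer mutated in acrodermatitis enteropathica in humans, had 12.97 ± 0.536 CPM in IsoLCA libraries, against 17.6 ± 0.447 CPM in Control libraries (SD, n = 3 each), given with no test. Of the other metallothionein genes Mt3 had group means of 0.217 to 0.418 CPM and passed nowhere, and Mt4 was at 0 in every library.

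**Figure D5:**
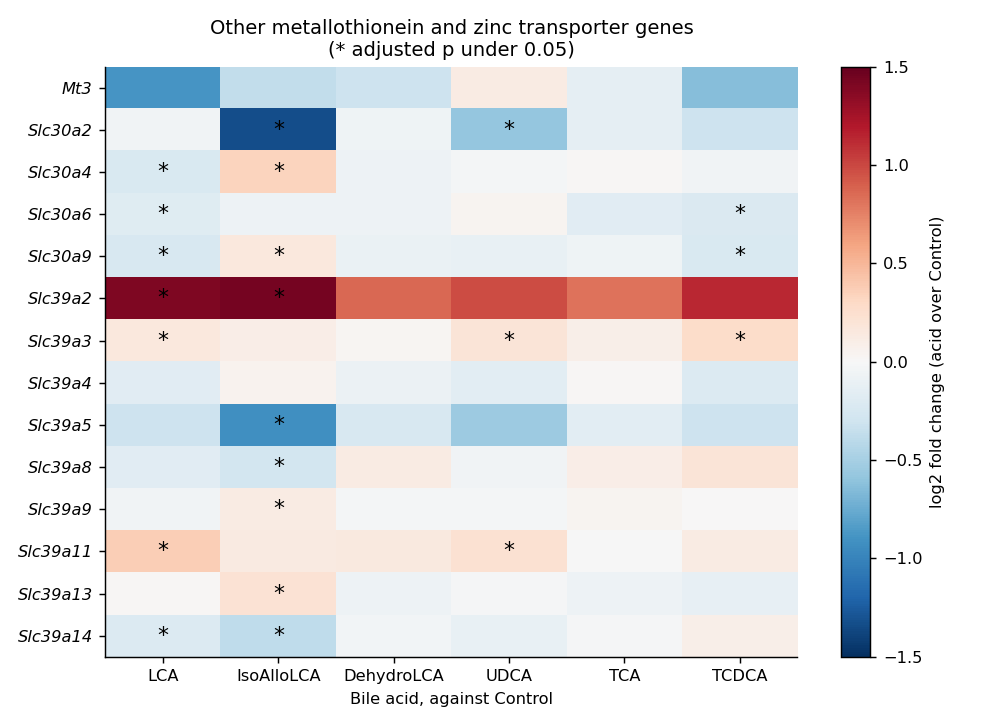
Log2 difference of each acid minus Control for the other SLC30 and SLC39 genes and Mt3 that passed the filter, for the 6 acids tested, on a colour scale centred on 0; marked cells passed an adjusted p under 0.05. Slc30a2 under IsoAlloLCA (-1.32) is the lowest marked value, and Slc39a2 under IsoAlloLCA (1.43) the highest.

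Genes that respond to Mtf1, oxidants or other metals were read from lists chosen by known function, with log2 differences from Control in brackets. Among 4 genes reported to depend on Mtf1 in mouse cells, Gclc, which encodes the catalytic subunit of the first enzyme of glutathione synthesis, rose under LCA (0.47), IsoAlloLCA (0.12), DehydroLCA (0.23), UDCA (0.24) and TCDCA (0.26). Ndrg1 fell under LCA (-1.14), DehydroLCA (-0.43), UDCA (-1.06) and TCDCA (-1.15), and Csrp1 fell under LCA (-0.20). Selenoh fell under LCA and IsoAlloLCA (-0.27 and -0.17), where 18.8% and 27.8% of all tested genes were lower. Of 6 targets of the oxidant-sensing factor NRF2, 5 rose under LCA, where 17.7% of all tested genes were higher, among them Gclm (0.63), Srxn1 (0.91) and Hmox1 (0.53). Under IsoAlloLCA 1 of these 6 rose (Srxn1, 0.48) and 2 fell (Txnrd1 and Slc7a11, -0.43 and -0.38), beside 30.6% of all tested genes higher and 27.8% lower. Gclm and Txnrd1 also rose under DehydroLCA (0.32 and 0.19), UDCA (0.44 and 0.23) and TCDCA (0.36 and 0.27), and Hmox1 fell under TCDCA (-0.48).

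Copper, iron and stress genes were read in the same manner, on the log2 scale. Among 9 copper genes 0 rose and 4 fell under LCA, beside 17.7% and 18.8% of all tested genes, and 2 rose and 2 fell under IsoAlloLCA, beside 30.6% and 27.8%. Atp7b, an exporter of copper, had 0.594 CPM in LCA, 2.03 CPM in DehydroLCA, 0.956 CPM in UDCA and 0.770 CPM in TCDCA libraries, against 4.12 CPM in Control libraries, and fell under each, with log2 differences of -2.76, -1.02, -2.10 and -2.41. Slc31a1, the copper importer, fell under LCA (-0.29), IsoAlloLCA (-0.31) and UDCA (-0.17), and Cox17 fell under LCA (-0.22) and IsoAlloLCA (-0.20). Atox1, a copper chaperone gene, fell under LCA (-0.31), and Ccs, which encodes the copper chaperone of superoxide dismutase, and Slc31a2 rose under IsoAlloLCA (0.28 and 0.32). Of the 6 tested iron genes, Tfrc, the transferrin receptor gene, fell under LCA (-0.52) and IsoAlloLCA (-0.17), and Aco1 fell under LCA (-0.17) and UDCA (-0.23). Fth1, the ferritin heavy chain gene, rose under IsoAlloLCA and TCDCA (0.11 each), and Ftl1, the ferritin light chain gene, rose under UDCA (0.16). Of 5 heat shock genes, Hspa1a and Hspa1b, near-identical copies between which reads may be divided, rose under IsoAlloLCA (3.81 and 3.17) while Hsph1 and Hspa8 fell there (-0.50 and -0.22), and Hspa1b also rose under LCA (0.67). Hsph1 and Hspa8 rose under LCA (0.32 and 0.38), DehydroLCA (0.17 and 0.22) and UDCA (0.31 and 0.19). Of 5 tested glucocorticoid-responsive genes Tsc22d3, Per1 and Dusp1 rose under IsoAlloLCA (1.10, 0.54 and 0.47) and Fkbp5 fell (-0.64). Tsc22d3 fell under LCA (-0.39), UDCA (-0.78) and TCDCA (-0.55) and Sgk1 under UDCA (-0.25), while Fkbp5 rose under UDCA (0.18) and TCDCA (0.12). Beside these iron, heat shock and glucocorticoid-responsive genes, 30.6% of all tested genes were higher and 27.8% lower under IsoAlloLCA. These shares were 17.7% and 18.8% under LCA, and 9.18% and 10.7% under UDCA. They were 2.41% and 3.41% under DehydroLCA, and 5.08% and 8.04% under TCDCA.

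Across the 24 libraries the pattern of Mt2 was most like that of Tox, a transcription factor gene of T cell exhaustion (Pearson r = 0.896), then Slc30a1 (0.881), Rxra (0.809), Tnks1bp1 (0.806) and Sccpdh (0.799), with Mt1 left out. For Slc30a1 the nearest genes were Mt2, Rxra (0.872), Prag1 (0.863), Mov10 (0.832) and Tox (0.831). For Slc39a10 they were Zbtb32 (0.974), Bspry (0.962), Kcnk5 (0.952), Tle3 (0.947) and Trim16 (0.946). Among the members, Mt1 and Mt2 had r = 0.970, and Slc39a10 had r = -0.82 with Mt1, -0.81 with Mt2 and -0.68 with Slc30a1. These values describe log2(CPM + 1) over the same 24 libraries, which share their 8 groups and their scaling.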

How the data were processed

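RNA from mouse CD8+ T cells was sequenced as 24 libraries in 8 groups of 3, and each title gave the group and replicate number. Expected counts were deposited by the authors in 1 table, as reads over exons, made with HOMER on mm10 without normalization, per the file headers, with 1 RefSeq transcript and its length for each gene. STAR, DESeq2 and GRCm38 stand without versions in the submitters' processing notes. The deposited values come in steps of 0.5 (29.43% are not whole) and were rounded to whole counts, with 0.5 rounded up. The sources used here give neither read length nor strand option, so reads of overlapping genes cannot be told apart.

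Counts were fitted with edgeR 4.0.16 in R 4.3.3: TMM factors, filterByExpr, 1 coefficient per group over all 24 libraries, a quasi-likelihood test, and Benjamini-Hochberg adjustment over 13044 genes with calls at 0.05. The test was checked on simulated data with independent libraries and few genes changed, all in IsoLCA. Its error rates under changes as wide as those of IsoAlloLCA were not checked. The common biological coefficient of variation was 4.41%. Counting error at a member's median count came to 4.72% for Slc30a1, above that, and to 1.21 to 2.73% for the other 9 members. Replicates differed beyond sampling noise (chi-square per degree of freedom of 2.83 to 18.7), so each was counted. Between LCA, IsoLCA and IsoAlloLCA the replicate numbers paired the libraries in part, by the data. Deviations of same-numbered libraries correlated at 0.113 to 0.730, and those of differently numbered libraries at -0.6295 to 0.1213. For IsoLCA against LCA, replicate 3 (0.113) lay below the highest of the differently numbered libraries (0.1213). A blocked value is given where it changes a call. The labels do not say what a number marks. The members and gene lists were chosen with earlier results of these data known. All 10 members are named, and listed genes where they passed in 2 or more of the acids; a few listed genes that passed in 1 (Csrp1, Slc7a11, Per1, Dusp1, Sgk1, Hspa1a, Atox1, Ccs, Slc31a2, Ftl1 and Itgax), and Slc39a4, Mt3 and Mt4, were named after their values were seen. Genes of like pattern are the 5 with the highest r among tested genes that reach 10 CPM in a group. Alternatives were other factors (RLE, upper-quartile), DESeq2 1.42.0, no filter, 0.5 rounded down, only the 6 libraries, the fit without IsoAlloLCA, Mt1 and Mt2 summed, the replicate block, and each library left out.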

Additional observations from a re-analysis of the deposited data

How the results depend on the processing

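Of 1958 recomputed values of the members, 1889 kept their side of the threshold or, where untested, moved less than the spread. A call was lost in 41 and gained in 22, and 6 moved (Mt1 or Mt2 with IsoLCA, on summing the pair). In 0 did a difference that passed change direction. Differences that passed in neither fit could change sign within the 1889. Slc30a7 did so for IsoAlloLCA against Control (-0.07 to 0.09 on leaving out 1 library). The cause of the changes was not tested. With Mt1 and Mt2 summed, the difference was 1.56 for IsoLCA minus Control, -0.64 for IsoAlloLCA minus IsoLCA and -1.35 for DehydroLCA minus IsoLCA. Genes called under TCA against Control numbered 57, against 103 with DESeq2, 123 with no filter and 14 with the 6 libraries alone. Members called for TCA against TCDCA numbered 0, against 1 with no filter and 2 with the replicate block (Mt1, adjusted p = 0.0149, and Mt2, adjusted p = 0.0403). The block, where the numbers do not pair the libraries, also gave calls for Mt1 under LCA against Control (adjusted p = 0.011), Slc39a10 under UDCA against Control (adjusted p = 0.033) and Mt1 for UDCA against LCA (adjusted p = 0.0185). It changed no other call of a member besides that of Slc39a1 for IsoLCA against LCA.

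Leaving out 1 library at a time, members called ranged from 3 to 5 for LCA against Control (3 without Control replicate 2), 1 to 3 for IsoLCA against LCA (1 without IsoLCA replicate 2) and 0 to 1 for TCA against TCDCA (1 without TCA replicate 3). Genes called ranged from 815 to 1198 for IsoLCA, 400 to 625 for DehydroLCA, 1692 to 2219 for UDCA, 6 to 114 for TCA and 898 to 1628 for TCDCA, all against Control. They ranged from 2521 to 3897 for IsoLCA against LCA, 1189 to 2228 for DehydroLCA against LCA, 98 to 182 for DehydroLCA against IsoLCA and 185 to 737 for TCA against TCDCA. Control replicate 2 gave the lowest count for IsoLCA, DehydroLCA, UDCA and TCDCA against Control, LCA replicate 2 for IsoLCA and DehydroLCA against LCA, TCA replicate 3 for TCA against Control (6), DehydroLCA replicate 3 for DehydroLCA against IsoLCA and TCA replicate 1 for TCA against TCDCA. With 3 libraries a group, changes near 0.1 on the log2 scale could be missed, and the size that passed differed by member and comparison. Slc39a7 passed at -0.11 for IsoAlloLCA against LCA (edgeR adjusted p = 0.0177). Slc39a6 at 0.16 for TCDCA against Control did not (edgeR adjusted p = 0.179).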
